A study of Homo sapiens with 12 samples.

Results

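The cytosolic ribosomal protein genes were followed in 4 lines derived from HMLE cells, human mammary epithelial cells that had been immortalised with telomerase and SV40 antigens. Members were taken by name from the gene identifiers of the deposited tables: protein-coding genes called RPL or RPS with a number and an optional letter or L, together with RPLP0, RPLP1, RPLP2 and RPSA. RPS6K kinases, RPS4Y genes, RPS19BP1 and pseudogenes were left out. The rule gave 85 genes of 61533 gene entries, 53 of the large and 32 of the small ribosomal subunit, and 78 of the 85 had enough counts to be tested among 15621 genes.

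One line carried transgenes for both HORMAD1, which encodes a component of the axis of meiotic chromosomes, and CT83, an X-linked cancer/testis gene (the double line). A HORMAD1 line, a CT83 line and a control line with a control construct completed the set, and all 4 lines had been selected with puromycin. Each line had 3 libraries of polyadenylated RNA, 12 in all, with 9899676 to 14160679 counts per library after rounding. Whether the replicates were separate cultures is not said in the labels, so p-values speak only of how far these libraries spread, possibly for technical reasons, and with 1 line per construct a transgene's effect and a difference between lines cannot be told apart. Both transgenes followed the labels: HORMAD1 was at 282 to 346 CPM (counts of the gene relative to a fixed library size) in the double line and 203 to 336 CPM in HORMAD1 libraries, CT83 was at 86.4 to 118 CPM in the double line and 400 to 725 CPM in CT83 libraries, and each was at 0 in the 6 libraries without it. Epithelial markers were present in every library, with KRT5 at 2410.2 to 3133 CPM, KRT17 at 1216 to 1890.1 CPM, CDH1 at 273 to 410.3 CPM and EPCAM at 155 to 209 CPM, although KRT19 stayed at 0.169 to 1.5 CPM. Of the fibroblast markers, FAP was at 17.03 to 22.5 CPM and COL1A1 at 5.51 to 60.4 CPM, while DCN, LUM and PDGFRA did not exceed 1.41 CPM. The immune markers PTPRC, CD3E and LYZ stayed at or below 0.177 CPM and the endothelial markers PECAM1, VWF and CDH5 at or below 0.781 CPM.

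Ribosomal proteins are the protein part of the small and large subunits of the cytoplasmic ribosome, in which the ribosomal RNAs read the message and join amino acids. Their genes are among the most active in dividing cells, and most of their messages begin with a C followed by an unbroken run of C and T, the 5′ terminal oligopyrimidine (TOP) tract, through which the mTOR pathway and the RNA-binding protein LARP1 control their translation. Several members have a closely related copy, or paralogue, elsewhere in the genome, and RPL5 and RPL11 outside the ribosome bind MDM2, the ubiquitin ligase that keeps p53 low.

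Start regions of members are shown because they carry the feature that the group shares at sequence level. RefSeq promoter windows of GRCh38.p14 were found for 68 of the 85 members, and 50 bases of each were taken, 30 before the annotated start and 20 from it on. Capitals mark a run that opens with C, holds at least 4 further C or T, and begins within 5 bases of the start on the transcribed strand. The first 4 lines are members whose values are given below, RPS3 (chr11:75399488-75399537, plus strand), RPS6 (chr9:19380217-19380266, minus strand), RPLP0 (chr12:120201092-120201141, minus strand) and RPL38 (chr17:74203648-74203697, plus strand). The next 2 are the paralogues RPL22 (chr1:6199576-6199625, minus strand) and RPL22L1 (chr3:170870176-170870225, minus strand). The last 4 are RPS27 (chr1:153990732-153990781, plus strand) with its paralogue RPS27L (chr15:63157458-63157507, minus strand), and 2 other members in whose windows no such run was found, RPL7L1 (chr6:42879586-42879635, plus strand) and RPL15 (chr3:23916515-23916564, plus strand).
RPS3: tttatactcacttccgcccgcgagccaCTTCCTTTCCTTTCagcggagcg
RPS6: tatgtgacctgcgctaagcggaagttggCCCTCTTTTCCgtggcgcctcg
RPLP0: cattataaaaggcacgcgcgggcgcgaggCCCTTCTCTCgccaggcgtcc
RPL38: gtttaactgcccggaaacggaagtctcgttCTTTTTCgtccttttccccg
RPL22: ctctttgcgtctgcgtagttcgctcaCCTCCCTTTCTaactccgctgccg
RPL22L1: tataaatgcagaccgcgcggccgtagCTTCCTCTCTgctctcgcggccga
RPS27: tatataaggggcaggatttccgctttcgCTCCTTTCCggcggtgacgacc
RPS27L: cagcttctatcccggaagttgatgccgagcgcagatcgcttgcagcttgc
RPL7L1: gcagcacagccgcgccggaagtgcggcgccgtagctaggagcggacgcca
RPL15: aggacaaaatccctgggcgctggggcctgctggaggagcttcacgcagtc

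Such a run was present in 49 of the 63 members that were tested and had a window (77.8%), and in 2167 of 9579 protein-coding genes tested with a window (22.6%). A TATA box, searched as TATAAA or TATAAG on the transcribed strand within the 50 bases before the start, was present in 6 of the 63 members (9.52%) and 2.74% of all. A match describes these letters only, and its absence says nothing about how a gene is regulated. Members had short transcripts, with a median length of 690 bases against 1548 bases over all genes tested with a length, and an ordinary GC content (51.3% against 50.2%). They lay on 21 chromosomes, with 12 on chromosome 19 and 9 on chromosome 3.

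The 78 tested members were among the strongest signals of these cells. Per length, their median level was 1130 CPM per kb of transcript, against 12.1 CPM per kb over 15335 genes. By this measure 63 of the 78 were among the 200 highest genes. The length is a median over annotated transcripts and need not be that of the message expressed, so levels and ranks per length are approximate. The 6 highest members were RPS3 (3917 CPM per kb), a small-subunit protein at the entry of the message channel, RPL35 (3497), RPS2 (3293), RPL8 (2862), the stalk protein RPLP0 (2848) and RPL5 (2592). At the other end stood RPL7L1 (40.1 CPM per kb), RPL39L (22.5) and RPL22 (3.25), of which the first and second are paralogues of RPL7 and RPL39. As listed, RPL22 was the one tested member below the median of all genes. Across the 12 libraries the coefficient of variation of CPM had a median of 9.47% over members. It was lowest for RPL23A (3.45%) and highest for RPL22L1 (20.01%) and RPL22 (26.4%), whose CPM rested on few counts.

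The other 7 members had too few counts to be tested. Among them, RPS10 of the small subunit, RPL17 of the large subunit and RPL10L, a paralogue of RPL10 known from testis, were listed at 0 in all 12 libraries. RPL36A summed to 1 count and RPL26 to 5 counts over the 12 libraries, and RPL3L, a paralogue of RPL3 known from muscle, to 12 counts. Several of these genes are used by every cell, and their values are given here only as listed. RPS10 and RPL17 share 39.4% and 32.7% of their exon bases with a same-strand gene in GENCODE 29 (chiefly the readthrough genes RPS10-NUDT3 and RPL17-C18orf32), RPL26 shares 14.3% and RPL36A 8.40%. Mean counts were 4.17 for RPS10-NUDT3, 0.167 for RPL17-C18orf32, 0 for the coding gene over RPL26 and 554 for RPL36A-HNRNPH2. RPS2 with 25.6% and RPL13A with 17.3% had high counts, but the genes they overlap are of another kind. They are small nucleolar RNA genes with a pseudogene (RPS2) or a processed transcript (RPL13A), all at a mean of 0 counts. The part of overlap in the low counts was not tested.

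Genes on the opposite strand held counts close to those of some members, which was looked at after the values were seen. In 13 pairs a gene on the other strand covered at least 50% of a member's body, and in 11 of these the member had counts. In 6 of the 11 the neighbour's counts nearly equalled the member's in every library, with ratios from 0.910 to 1.08. These were ATG10 with RPS23, PIN4 with RPS4X, IQCG with RPL35A, CAND2 with RPL32, DIPK1A with RPL5 and NKIRAS1 with RPL15. DIPK1A, for example, had 3145, 2774 and 2629 CPM in the double line, 1967, 2197 and 2164 CPM in HORMAD1 libraries, 2710.1, 2475 and 1997 CPM in CT83 libraries and 2377, 1903 and 2369 CPM in control, close to the RPL5 values below. In the other 5 pairs the ratio was lower, from 0.0111 (MATN2 to RPL30) to 0.519 (LACTB to RPS27L). The remaining 2 pairs joined an antisense gene with a mean of 6400 counts to RPL26 and one with a mean of 10822 counts to RPL17, the members listed near 0. Overlap of exons was small in these 6 pairs. Exons of PIN4 and IQCG held 0% of the member's exon bases. The share was 6.27% for NKIRAS1, 7.34% for DIPK1A, 8.60% for CAND2 and 8.90% for ATG10. It was 0% for the antisense gene over RPL26 and 2.64% for that over RPL17. Why the counts were nearly equal was not tested. Neither the use of strand nor the annotation used in counting is given in the sources used here. Reads of overlapping genes therefore cannot be told apart, and values of these 6 members and of RPL26 and RPL17 are uncertain. So are those of RPL23A, RPL30 and RPS3A, where a gene on the other strand covered less of the body but held at least 0.5 times the member's counts. An antisense gene covered 28.0% of RPL23A with 0.834 to 0.916 times its counts by library, RPL30-AS1 covered 11.1% of RPL30 with 0.826 to 0.908 times, and SH3D19 covered 37.4% of RPS3A with 0.732 to 0.779 times.

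**Figure D1:**
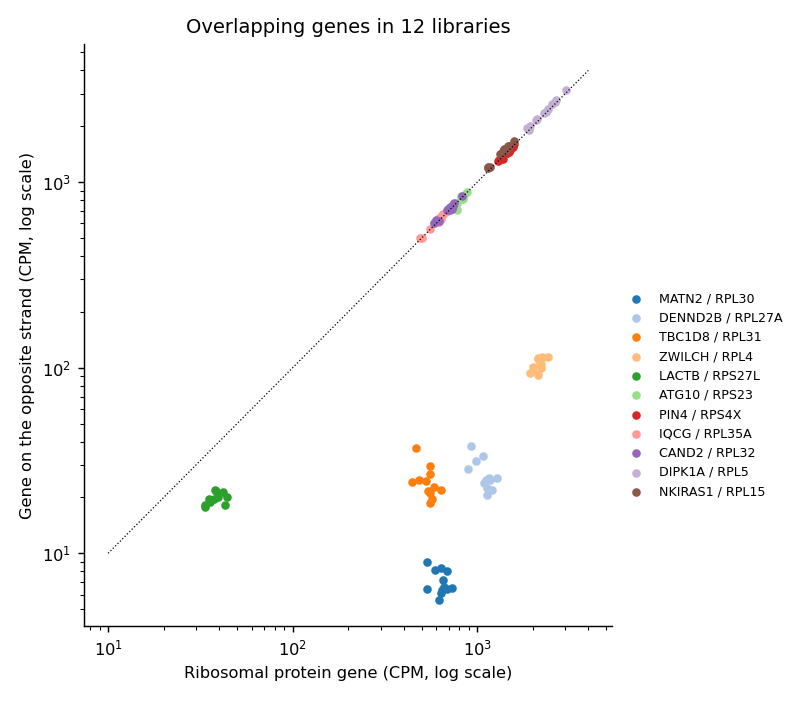
Each point is 1 of 12 libraries for 1 pair, with the CPM of the ribosomal protein gene on the x axis and of the gene on the opposite strand on the y axis, both on log scales; the dotted line marks equal values. The points of 6 pairs lie on the line, with ratios from 0.910 to 1.08, and those of the other 5 lie below it.

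The members together took 7.66 ± 0.375% of all counts in the double line, 7.07 ± 0.404% in the HORMAD1 line, 7.09 ± 0.803% in the CT83 line and 7.14 ± 0.290% in control (SD, n = 3 each). By library the share was 8.06%, 7.59% and 7.32% in the double line, 6.63%, 7.15% and 7.43% in the HORMAD1 line, 7.62%, 7.49% and 6.17% in the CT83 line and 7.34%, 6.81% and 7.28% in control. Lines overlapped: double replicate 3 lay below control replicate 1, and below 2 of the CT83 and 1 of the HORMAD1 libraries. CT83 replicate 3 and HORMAD1 replicate 1 had the lowest shares, with 73 and 75 of 78 members below their 12-library mean, and control replicate 2 had 71 below. In double replicates 1 and 2, 74 members each lay above that mean, against 37 in double replicate 3. CT83 replicate 1 had 72 above it, against the 73 below it in CT83 replicate 3 of the same line. Nearly all members thus deviated in the same direction in each of these 6 libraries.

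The same libraries differed in a trend on transcript length over the other genes. The slope of log2 CPM on log2 length, leaving out members, was -0.046, -0.024 and 0.0046 in the double line, 0.052, -0.011 and -0.021 in the HORMAD1 line, -0.014, -0.0019 and 0.051 in the CT83 line and -0.006, 0.025 and -0.0094 in control. The 3 libraries with the steepest positive slopes (HORMAD1 replicate 1, CT83 replicate 3 and control replicate 2) had the 3 lowest shares, and double replicate 1 with the most negative slope had the highest. The part of this trend in the differences below was not tested as a cause. Each difference was also computed without these 3 libraries and with the trend taken out. These 3 had the lowest shares and none is of the double line, so its medians against the other lines were bound to be lower without them. Double replicate 1, at -0.046, was steeper in size than control replicate 2, at 0.025, and was kept. Values without the 3 libraries therefore say nothing of the part of length. Fewer cells of a kind and less RNA per cell cannot be told apart in such bulk samples.

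**Figure D2:**
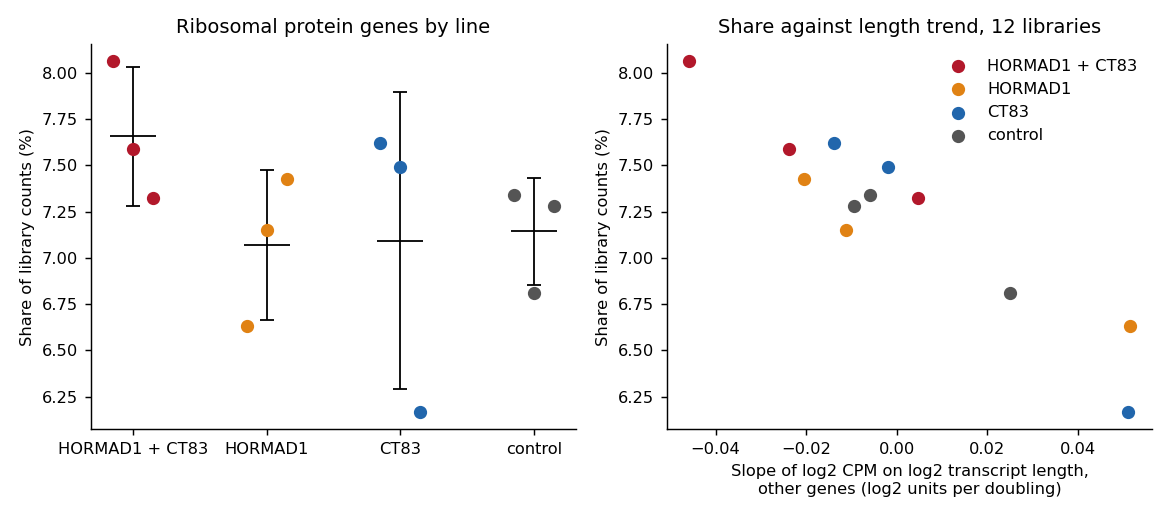
Left, share of library counts (%) taken by the ribosomal protein genes in each of 3 libraries per line (points), with the mean and SD (bar and whiskers); the axis does not start at 0. Right, the same shares against the slope of log2 CPM on log2 transcript length over the other genes; the lowest share, 6.17%, and the highest, 8.06%, lie among the steepest positive slopes and at the most negative slope.

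**Figure D3:**
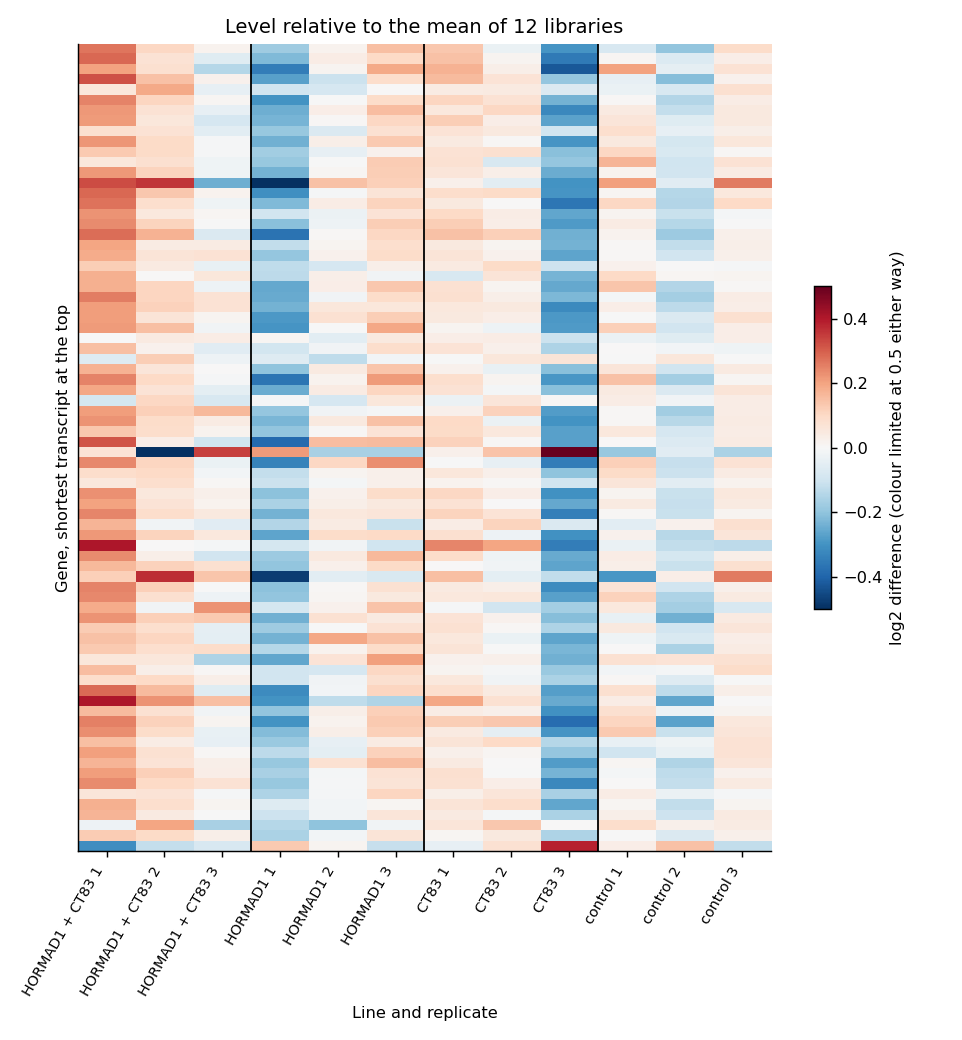
Level of each of 78 tested members (rows, shortest transcript at the top) in each of 12 libraries (columns), as the log2 difference from the gene's mean over the 12 libraries. Whole columns share a colour: CT83 replicate 3 and HORMAD1 replicate 1 are low in 73 and 75 members, and double replicate 1 is high in 74.

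In the double line against control, members as a group had slightly higher values, and no single member passed the test. Of the 78, 71 had a log2 fold change above 0 (49.6% of all 15621 genes did), and the median was 0.10 over members and -0.00 over all genes. Both subunits shared this, with medians of 0.11 over 30 small-subunit and 0.09 over 48 large-subunit members. In the quasi-likelihood test of edgeR, adjusted by Benjamini-Hochberg over all genes, 0 members were called at an adjusted p under 0.05, where 0.0256% of all genes were, and the smallest adjusted p of a member was 0.805. DESeq2 and limma-voom also called 0 members, and 2 members had an unadjusted p under 0.05 in edgeR (2.56% of members, 5.53% of all genes). Without the 3 libraries of steep length trend the median was 0.06, with 69 of 78 above 0, and with the length trend taken out it was 0.08. It was 0.05 without double replicate 1 and 0.05 without control replicate 2.

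In 16 members every library of the double line lay above every control library (20.5% of members, 7.48% of all genes). Among them were RPL5, RPL7A, RPL9, RPL13A, RPL15, RPL32, RPL38, RPL39L, RPL41 and RPLP0 of the large subunit, and RPS3A, RPS4X, RPS6, RPS14 and RPS24 of the small one. Leaving out libraries can keep or raise such counts but cannot lower them. Without the 3 libraries, an alternative added after seeing the data, 16 members were higher, beside 10.3% of all genes, and 1 lower, beside 11.5%. RPL5, RPL15, RPL32 and RPS4X of these 16 are among the members with near-equal opposite-strand neighbours, and RPS3A has SH3D19. RPL8 alone lay below control in every library (1.28% of members, 7.94% of all genes), at 2535, 2532 and 2191 CPM in the double line and 2572, 2553 and 2572 CPM in control. This gene on chromosome 8 encodes a protein near the peptidyl transferase centre, and its log2 fold change was -0.08 (SE 0.12, edgeR adjusted p = 0.93).

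Markers of epithelial cells were set beside these values. Of 9 in the list 8 were tested. In the double line against control 2 had a log2 fold change above 0 and 6 below, with a median of -0.12. EdgeR called 0, where 0.0256% of all genes were called. In that test 3 had an unadjusted p under 0.05, all lower, beside 5.53% of all genes in either direction. CDH1 was at 301, 305 and 273 CPM in the double line and 361, 400.1 and 370.1 CPM in control. KRT8 was at 1884, 2108 and 1764 CPM in the double line and 2262, 2604 and 2352 CPM in control, and KRT18 at 934, 1056 and 867 CPM in the double line and 1121, 1252 and 1138 CPM in control. All 3 lay below control in every library of the double line, as did 7.94% of all genes. EPCAM, KRT5, KRT14, KRT17 and TP63 overlapped control. The 2 above 0 were TP63 and KRT14. KRT14 was at 725, 660 and 443 CPM in the double line and 447, 472 and 559 CPM in control. In the CT83 line KRT8 and KRT18 also lay below every control library, at 1913, 1873 and 1985 CPM and at 964, 935 and 1018 CPM. The fibroblast marker FAP was at 22.5, 22.5 and 22.4 CPM in the double line and 19.4, 21.97 and 19.8 CPM in control, above it in every library, whereas COL1A1 at 12.4, 21.03 and 60.4 CPM in the double line and 19.8, 14.7 and 43.4 CPM in control overlapped. The part of these markers in the member values was not tested.

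RPL5 (ENSG00000122406.14, chromosome 1, 92831983 to 92841924, plus strand of GRCh38 in GENCODE 29), which carries the ribosomal 5S RNA into the large subunit, had the smallest p of the members. Its values were 3040.2, 2685 and 2551 CPM in the double line, 1866, 2102 and 2071 CPM in HORMAD1 libraries, 2627, 2424 and 1931 CPM in CT83 libraries and 2355, 1917 and 2299.7 CPM in control. All 3 libraries of the double line were above every control and every HORMAD1 library, whereas double replicate 3 was below CT83 replicate 1. The log2 fold change against control was 0.33 (SE 0.12, edgeR adjusted p = 0.805). DIPK1A, which overlaps it on the opposite strand, had 0.36 (SE 0.12, edgeR adjusted p = 0.8) in the same comparison, so the difference cannot be assigned to RPL5 alone. RPL11, the other protein that binds MDM2 together with the 5S RNA, was at 873, 800.2 and 788 CPM in the double line and 778, 779 and 835 CPM in control, with overlapping libraries (log2 fold change 0.04, SE 0.09, edgeR adjusted p = 0.947).

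RPL15, a large-subunit protein, was at 1586, 1472 and 1486 CPM in the double line and 1323, 1149 and 1399.9 CPM in control, a log2 fold change of 0.23 (SE 0.11, edgeR adjusted p = 0.892). The value was 0.15 without control replicate 2, whose level was the lowest of the 3. RPL38, a small protein at the surface of the large subunit, was at 362, 321 and 294 CPM in the double line and 282, 249.8 and 294 CPM in control. Its log2 fold change was 0.24 (SE 0.11, edgeR adjusted p = 0.892), and 0.16 without double replicate 1. Double replicate 3 and control replicate 3 of RPL38 both came to 294 CPM, so the groups barely parted. In edgeR's test none of these differences passed the adjustment.

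Among abundant members, RPS6 of the small subunit, the substrate of S6 kinase downstream of mTOR, was at 2468, 2244 and 2203 CPM in the double line and 2099, 1928 and 2161 CPM in control, without overlap (log2 fold change 0.16, SE 0.11, edgeR adjusted p = 0.909). RPS3, the most abundant member per length, was at 3937, 3714 and 3481 CPM in the double line and 3727, 3467 and 3562 CPM in control, with overlap (log2 fold change 0.05, SE 0.11, edgeR adjusted p = 0.948). RPS2, a small-subunit protein, was at 2949, 2859 and 2618 CPM in the double line and 2792, 2529.7 and 2816 CPM in control, with overlap (log2 fold change 0.05, SE 0.10, edgeR adjusted p = 0.938). RPL35, a large-subunit protein at the exit of the tunnel for new chains, was at 1879, 1706 and 1593 CPM in the double line and 1590.0, 1431 and 1625 CPM in control, and double replicate 3 overlapped control (log2 fold change 0.16, SE 0.12, edgeR adjusted p = 0.909). RPSA, also known as the laminin receptor, was at 2257, 2104 and 2046 CPM in the double line and 2016, 1805 and 2092 CPM in control, and its libraries overlapped (log2 fold change 0.12, SE 0.11, edgeR adjusted p = 0.915). RPS27A, made as a fusion with ubiquitin, was at 949, 867 and 786 CPM in the double line and 872, 743 and 845 CPM in control, also with overlap (log2 fold change 0.08, SE 0.14, edgeR adjusted p = 0.933). RPS4X, encoded on the X chromosome, was at 1588, 1556 and 1485 CPM in the double line and 1455, 1386 and 1483 CPM in control. Its 3 libraries of the double line were above all control libraries by a narrow margin, and its log2 fold change was 0.10 (SE 0.09, edgeR adjusted p = 0.913).

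Of the 3 stalk proteins, which recruit translation factors, RPLP0 parted from control without overlap and the other two did not. RPLP0 was at 2634, 2550.1 and 2562 CPM in the double line and 2404, 2156 and 2474 CPM in control, without overlap (log2 fold change 0.14, SE 0.10, edgeR adjusted p = 0.909). RPLP1 was at 865, 946 and 808 CPM in the double line and 811, 786 and 877 CPM in control, with overlap (log2 fold change 0.08, SE 0.08, edgeR adjusted p = 0.915). RPLP2 was at 169, 193 and 174 CPM in the double line and 177, 184 and 177 CPM in control, again with overlap (log2 fold change -0.00, SE 0.07, edgeR adjusted p = 0.995). Whether the 3 differed from each other was not tested. RPL41, the smallest ribosomal protein, was at 1249, 1148 and 1155 CPM in the double line and 1105, 1029.5 and 1118 CPM in control, without overlap (log2 fold change 0.13, SE 0.10, edgeR adjusted p = 0.911).

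**Figure D4:**
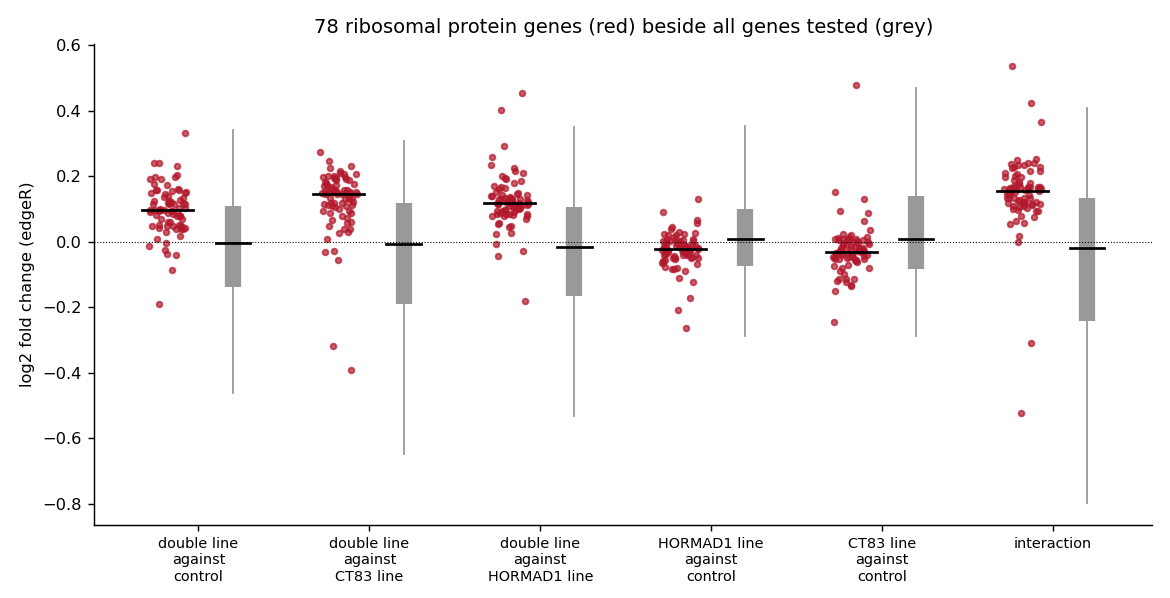
Log2 fold changes of the 78 tested members (red points, black line at their median) beside those of all 15621 genes tested (grey, thick bar from the lower to the upper quartile, thin line from the fifth to the 95th percentile, black line at the median) in 6 comparisons. Members centre above 0 in the 3 comparisons of the double line and in the interaction (medians 0.10, 0.15, 0.12 and 0.16), and at -0.02 and -0.03 in the single lines against control.

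Against the single lines, the double line again had higher member values with no call. Against the CT83 line 73 of 78 members were above 0 (49.0% of all genes), with a median of 0.15 over members and -0.01 over all genes. EdgeR's quasi-likelihood test called 0 members, where 0.0064% of all genes were called, DESeq2 and limma-voom called 0, and 2 members had an unadjusted p under 0.05 (2.56% of members, 8.04% of all genes). In 5 members (6.41%) the libraries did not overlap and were higher in the double line, beside 8.6% of all genes. Among them were RPL15, RPLP0, RPS3A and RPS14, and 1 member was lower without overlap (1.28%, 9.25% of all genes). Without the 3 libraries these counts, which could not fall, were 5 and 1, beside 14.1% and 14.7% of all genes. The median was 0.06 without the 3 libraries of steep length trend, with 63 of 78 above 0, and 0.05 without CT83 replicate 3 alone. This comparison and that with control use the same 3 libraries of the double line.

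RPL7L1 had the smallest p in that comparison and the opposite direction. It was at 121, 138 and 142 CPM in the double line, 146, 158 and 196 CPM in CT83 libraries and 154, 166 and 138 CPM in control. The double line lay below every CT83 library, and the log2 fold change was -0.32 (SE 0.11, edgeR adjusted p = 0.589), or -0.19 without CT83 replicate 3. With a transcript of 3769 bases it was the longest member, and CT83 replicate 3, where it peaked, was the library in which most other members were lowest. RPS27L was at 43.1, 37.4 and 44.3 CPM in the double line and 37.7, 35.4 and 33.6 CPM in CT83 libraries, with overlap (log2 fold change 0.22, SE 0.10, edgeR adjusted p = 0.589).

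Against the HORMAD1 line 74 of 78 members were above 0 (46.9% of all genes), with a median of 0.12 over members and -0.01 over all genes. In edgeR 0 members were called, where 0.0448% of all genes were, and 4 members had an unadjusted p under 0.05 (5.13% of members, 7.58% of all genes); limma-voom also called 0. In 8 members (10.3%, 6.02% of all genes) the double line lay above every HORMAD1 library, namely RPL3, RPL5, RPL15, RPL39L, RPS3A, RPS6, RPS9 and RPS14, and 0 lay below (6.09% of all genes). Without the 3 libraries these counts, which could not fall, were 8 and 2, beside 13.2% and 14.8% of all genes. The median was 0.05 without HORMAD1 replicate 1, 0.19 without HORMAD1 replicate 3, 0.07 without double replicate 1, and 0.05 without the 3 libraries of steep length trend. RPL5 had a log2 fold change of 0.45 (SE 0.12, edgeR adjusted p = 0.265) in edgeR's quasi-likelihood test. DESeq2 called it (adjusted p = 0.0498), as did edgeR with no low-count filter (adjusted p = 0.0124) and without the 3 libraries (adjusted p = 0.0012). It was the 1 member called in each, where 62 of 15621, 103 of 28448 and 337 of 15699 genes were called in all. DIPK1A had 0.43 (SE 0.12, edgeR adjusted p = 0.288) in the edgeR test. RPS9, a small-subunit protein, was at 203, 242 and 206 CPM in the double line, 135, 180.4 and 178 CPM in HORMAD1 libraries and 153, 191 and 224 CPM in control. Its log2 fold change against the HORMAD1 line was 0.40 (SE 0.14, edgeR adjusted p = 0.504), and control replicate 1 lay within the range of the HORMAD1 libraries. RPL38 was at 240.1, 269 and 308 CPM in HORMAD1 libraries, where replicate 3 overlapped the double line (log2 fold change 0.26, SE 0.11, edgeR adjusted p = 0.63).

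In the single lines against control the member medians lay close to 0. In the HORMAD1 line 21 of 78 members were above 0 (53.1% of all genes), with a median of -0.02 over members and 0.01 over all genes. In the CT83 line 22 were above 0 (52.7% of all genes), with a median of -0.03 over members and 0.01 over all genes. EdgeR's quasi-likelihood test called 0 members in either line, where 0.0064% of all genes were called in each, as did DESeq2 and limma-voom, and 0 members had an unadjusted p under 0.05, against 1.84% and 2.72% of all genes. The direction rested on single libraries: without HORMAD1 replicate 1 the first median was 0.05, without CT83 replicate 3 the second was 0.05, and without the 3 libraries of steep length trend they were 0.01 and 0.01.

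In the HORMAD1 line 0 members lay above every control library (4.41% of all genes did) and 2 lay below (2.56%, 3.13% of all genes). RPS28, a small-subunit protein, was at 141, 136 and 154 CPM in HORMAD1 libraries and 166, 159 and 161 CPM in control (log2 fold change -0.17, SE 0.09, edgeR adjusted p = 0.9999). RPLP2 was at 169.7, 162 and 176 CPM in HORMAD1 libraries and 177, 184 and 177 CPM in control (log2 fold change -0.08, SE 0.07, edgeR adjusted p = 0.9999). RPS9 in the HORMAD1 line had a log2 fold change of -0.21 (SE 0.14, edgeR adjusted p = 0.9999) against control, with overlap, and it was -0.35 without control replicate 1, -0.07 without control replicate 3 and -0.08 without HORMAD1 replicate 1. In the CT83 line 1 member lay above every control library (1.28%, 4.95% of all genes) and 1 below (1.28%, 5.5% of all genes). RPL22 lay above, at 2.23, 2.43 and 3.64 CPM in CT83 libraries and 1.89, 2.09 and 1.94 CPM in control (log2 fold change 0.48, SE 0.31, edgeR adjusted p = 0.985), or 0.24 without CT83 replicate 3. Its values rested on a mean of 26 counts per library. RPL8 lay below, at 2470.4, 2478 and 2064 CPM in CT83 libraries against 2572, 2553 and 2572 CPM in control (log2 fold change -0.13, SE 0.12, edgeR adjusted p = 0.985), or -0.05 without CT83 replicate 3. RPS18, a small-subunit protein of the head, was at 250.2, 277 and 225 CPM in CT83 libraries and 283, 266 and 267 CPM in control, with overlap (log2 fold change -0.12, SE 0.09, edgeR adjusted p = 0.985), and at -0.05 without CT83 replicate 3 on the log2 scale. Without the 3 libraries, which leaves 2 in each of these lines, 10 members lay above and 7 below control in the HORMAD1 line, beside 20.9% and 20.6% of all genes. In the CT83 line 16 lay above and 10 below, beside 25.1% and 24.3% of all genes.

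The interaction asks whether the double line departed from the sum of both single-line differences on the log2 scale. CT83 itself was not at equal level, with a mean of 102 CPM in the double line and 524 CPM in the CT83 line. The part of this difference in the interaction was not tested. Of the 78 members, 76 had an interaction above 0 (47.2% of all genes), with a median of 0.16 over members and -0.02 over all genes. EdgeR's quasi-likelihood test called 0 members, where 0.0% of all genes were called, and 1 member had an unadjusted p under 0.05 (4.49% of all genes); DESeq2 and limma-voom called 0 members. The members with the smallest p were RPL5 (interaction 0.37, SE 0.17, edgeR adjusted p = 0.848), RPS9 (interaction 0.42, SE 0.20, edgeR adjusted p = 0.848) and RPL7L1 (interaction -0.31, SE 0.16, edgeR adjusted p = 0.848), the last with the opposite sign. The median was 0.04 without the 3 libraries of steep length trend, 0.07 without CT83 replicate 3 and 0.08 without HORMAD1 replicate 1. All 6 comparisons draw on the same 4 groups of libraries, so their directions are not independent of each other.

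Other genes of the same annotated length had lower medians. That length is a median over annotated transcripts, for example 587 bases for LARP1, and need not be that of the message expressed. The other genes were not matched to the members for level either, so the part of length was not tested by these bins. In the double line against control, the 33 members of 500 to 700 bases had a median log2 fold change of 0.09, against 0.00 over 1896 other genes of that length. From 700 to 1000 bases 30 members had 0.11, against 0.03 over 2393 other genes, while 1074 other genes above 5000 bases had -0.09. Against the CT83 line the values at 700 to 1000 bases were 0.15 over members and 0.03 over other genes, and against the HORMAD1 line they were 0.11 and 0.03. Taking the trend on the same annotated lengths out of each library left medians of 0.08, 0.13 and 0.10 over members against control, the CT83 line and the HORMAD1 line, and of 0.14 in the interaction. Leaving out the 3 libraries gave 0.06, 0.06, 0.05 and 0.04 in the same 4 comparisons. Those 3 had the lowest member shares, so the lower medians against the other lines follow from that choice.

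**Figure D5:**
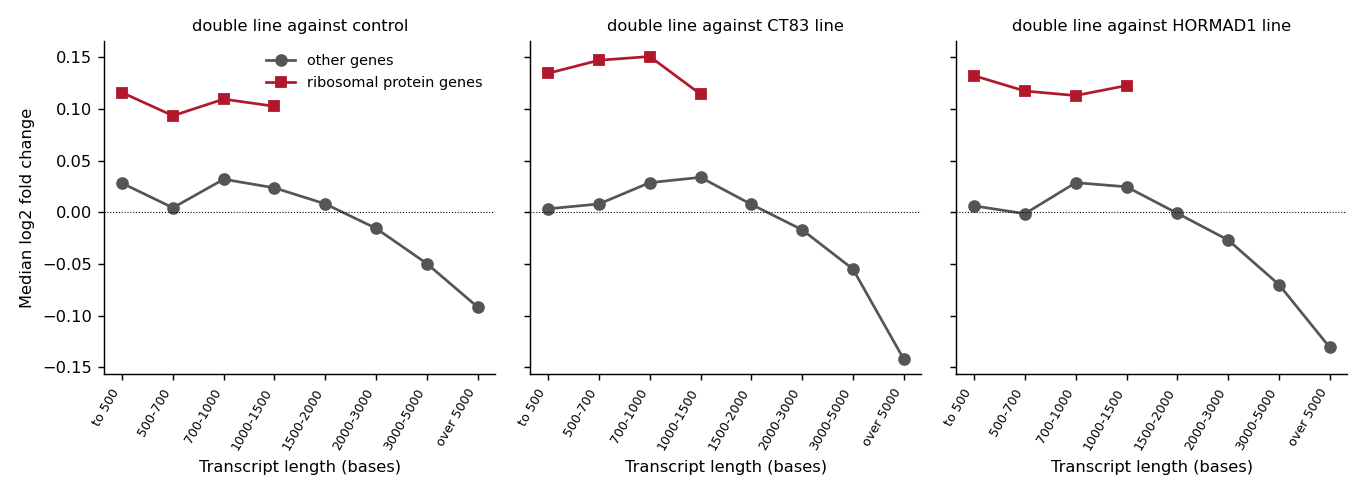
Median log2 fold change by transcript length (bases) of the members (red squares, bins with at least 5 members) and of other genes tested (grey circles) in the double line against control, the CT83 line and the HORMAD1 line. Members lie above other genes of the same annotated length in each bin drawn, for example 0.11 against 0.03 at 700 to 1000 bases against control, and other genes fall below 0 beyond 2000 bases.

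Paralogues were compared per length within 8 pairs, on the same annotated lengths, so their shares are approximate. RPL22L1 made up 95.04% to 98.90% of the RPL22 pair in all 12 libraries, since RPL22 was listed at only 1.23 to 3.64 CPM. A same-strand coding gene with a mean of 0 counts covers 52.3% of the RPL22 body. RNF207 on the opposite strand covers 16.1%, with a mean of 37.8 counts against 26 of RPL22. Pseudogene entries held 21.5 counts per 100 of RPL22. The level of RPL22 and the share of the pair are therefore uncertain. RPL22 and RPL22L1 both bind RNA, and both carry a pyrimidine run at the start in the windows above. RPL22L1 was at 84.8, 86.7 and 57.1 CPM in the double line, 39.2, 74.9 and 73.4 CPM in HORMAD1 libraries, 68.8, 65.2 and 54.9 CPM in CT83 libraries and 77.97, 64.96 and 80.96 CPM in control. HORMAD1 replicate 1 and CT83 replicate 3 were its lowest libraries, and no difference between lines passed (edgeR adjusted p of 0.682 or more). RPL22 in turn was highest in CT83 replicate 3, at 3.64 CPM.

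RPL39L, known from male germ cells, made up 2.87% to 3.72% of its pair with RPL39. It was at 22.2, 16.7 and 16.6 CPM in the double line and 16.4, 15.3 and 15.3 CPM in control, where the libraries narrowly parted (log2 fold change 0.24, SE 0.16, edgeR adjusted p = 0.907), and RPL39 was at 321, 277 and 252 CPM in the double line and 265, 251 and 269 CPM in control, with overlap (log2 fold change 0.12, SE 0.12, edgeR adjusted p = 0.916). RPS27L, a p53 target, made up 3.70% to 4.76% of its pair with RPS27, and was at 43.1, 37.4 and 44.3 CPM in the double line and 39.3, 33.7 and 35.8 CPM in control (log2 fold change 0.20, SE 0.10, edgeR adjusted p = 0.893). RPS27 was at 469.8, 419 and 394 CPM in the double line and 369, 340.0 and 415 CPM in control, also with overlap (log2 fold change 0.19, SE 0.12, edgeR adjusted p = 0.905). RPL7L1 made up 2.41% to 5.01% of its pair with RPL7. RPL7 was at 1212, 1108 and 1054 CPM in the double line and 982, 1024 and 1104 CPM in control, with overlap (log2 fold change 0.12, SE 0.09, edgeR adjusted p = 0.911).

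The other 4 pairs were one-sided. RPL36AL was at 146 to 182 CPM and RPL26L1 at 37.9 to 61.9 CPM over the 12 libraries, while their parents RPL36A and RPL26 were listed near 0, so their shares of 99.7% or more are not levels of expression of the parents. RPL3 and RPL10 were at 1619 to 2188 CPM and 1009 to 1154 CPM, whereas RPL3L did not exceed 0.403 CPM and RPL10L was listed at 0. Exons of opposite-strand genes hold 52.7% of the exon bases of RPL10. Among these genes is an antisense gene with a mean of 3785 counts against 12640 of RPL10, so the level of RPL10 is uncertain too. Pseudogene entries named after members, 1598 in number, took 0.204% to 0.259% of counts, or 3.02 to 3.31 counts per 100 member counts. RPS2P5 alone held 26.3% of them. Relative to single members the pseudogene counts ranged from 0 to 50.02 per 100 member counts over the 78 tested, with a median of 0.281, and 10 members exceeded 10 per 100. RPS28 had the highest value, with RPS28P7 at 10928 counts against 21849 of RPS28 over the 12 libraries, and RPS2 followed with 22.9 per 100. Reads of near-identical copies can be split between entries, so levels of such members are uncertain.

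Other genes of protein synthesis were set beside the members in the double line against control. EdgeR called 0 of them, where 0.0256% of all genes were called. RACK1, a ribosomal protein outside the naming rule and a scaffold of the small subunit, was at 1484, 1431 and 1309.8 CPM in the double line and 1402, 1275 and 1413 CPM in control (log2 fold change 0.05, SE 0.10, edgeR adjusted p = 0.941). Of 18 translation factors and other genes with TOP messages 16 were tested, 10 were above 0 and the median was 0.05. EEF1A1, the elongation factor that delivers aminoacyl-tRNA, was at 12598, 11946 and 12071 CPM in the double line and 11229, 10955 and 12266 CPM in control, with overlap (log2 fold change 0.09, SE 0.10, edgeR adjusted p = 0.922). Of 26 genes of ribosome assembly and rRNA synthesis 25 were tested, 8 were above 0 and the median was -0.05. NOLC1, a nucleolar chaperone, was at 266, 271 and 273 CPM in the double line and 315, 326 and 293 CPM in control, without overlap (log2 fold change -0.20, SE 0.09, edgeR adjusted p = 0.871).

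Of 11 regulators 3 were above 0 in that comparison, with a median of -0.09. MYC, which activates ribosome production, had the smallest p of these lists, at 336, 352 and 329 CPM in the double line, 364, 373 and 374 CPM in HORMAD1 libraries, 395, 395 and 394 CPM in CT83 libraries and 408, 406 and 380.0 CPM in control. The double line was the lowest of the 4 in every library, and the log2 fold change was -0.23 (SE 0.07, edgeR adjusted p = 0.718) against control and -0.22 (SE 0.07, edgeR adjusted p = 0.589) against the CT83 line, neither of which passed edgeR's test. MTOR, the kinase of the pathway, was at 57.1, 61.1 and 62.6 CPM in the double line and 72.3, 79.7 and 95.5 CPM in CT83 libraries, without overlap (log2 fold change -0.45, SE 0.14, edgeR adjusted p = 0.589). LARP1 was at 107, 141 and 148 CPM in the double line and 160.0, 219 and 149 CPM in control, below every control library (log2 fold change -0.42, SE 0.25, edgeR adjusted p = 0.905). The lengths used, medians over annotated protein-coding transcripts, were 4017 bases for MTOR and 587 bases for LARP1. They need not be the lengths of the messages expressed. Both genes were highest in the 3 libraries of steep length trend, CT83 replicate 3, control replicate 2 and HORMAD1 replicate 1. LARP1 was there at 275, 219 and 201 CPM and MTOR at 95.5, 82.8 and 84.5 CPM.

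MDM2, the p53 ligase that RPL5 and RPL11 bind, was at 62.2, 57.9 and 71.6 CPM in the double line and 85.4, 78.8 and 75.3 CPM in HORMAD1 libraries, without overlap (log2 fold change -0.32, SE 0.11, edgeR adjusted p = 0.414), and had 0.22 (SE 0.11, edgeR adjusted p = 0.9999) in the HORMAD1 line against control. BYSL, an assembly factor of the small subunit, was at 62.9, 65.99 and 56.99 CPM in the double line and 48.9, 52.9 and 54.6 CPM in HORMAD1 libraries, without overlap (log2 fold change 0.25, SE 0.09, edgeR adjusted p = 0.511), and its interaction was 0.32 (SE 0.13, edgeR adjusted p = 0.848). In the HORMAD1 line against control BYSL had -0.21 (SE 0.09, edgeR adjusted p = 0.9999). EEF1D, a subunit of the elongation factor's exchange complex, was at 295, 389.8 and 352 CPM in CT83 libraries and 410.4, 424 and 415 CPM in control, without overlap (log2 fold change -0.27, SE 0.11, edgeR adjusted p = 0.985), and its log2 fold change was -0.17 without CT83 replicate 1. RPTOR, the mTOR partner, had 0.33 (SE 0.17, edgeR adjusted p = 0.985) there, or 0.18 without CT83 replicate 3, and an interaction of -0.63 (SE 0.24, edgeR adjusted p = 0.848). None passed edgeR's test.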

How the data were processed

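RNA sequencing of polyadenylated RNA gave 3 samples for each of 4 HMLE-derived lines. The submitters' processing notes list Trimmomatic 0.39, STAR 2.7.5c, Picard and SAMtools, and name hg38 as well as hg19 with no role for either. Which program counted reads, on which annotation and whether by strand is not stated there. The values the authors deposited are expected counts of genes, which are estimates and partly fractional. Rounding them changed 6.75% of the values by at most 0.5. No column lacked a sample.

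Of 61533 identifiers, 61369 matched a symbol and 58312 occur in GENCODE 29, the source of coordinates and of transcript lengths (the median over protein-coding transcripts). The model was a robust quasi-likelihood fit in edgeR 4.0.16 (R 4.3.3) to all 12 samples, with a mean for each line, TMM scaling and filterByExpr at a minimum of 10 counts. Calls needed a Benjamini-Hochberg adjusted p below 0.05 over the 15621 genes of a comparison. Compared were each line with control, the double line with both single lines, and the interaction. CPM values are TMM-normalised, and log2 fold changes had a median SE of 0.15. On simulated counts of 15452 genes for the double line against control, the fit recovered 40.3%, 88.1% and 100% of genes changed 1.5-fold, 2-fold and 4-fold. All replicate pairs differed by more than sampling noise (a chi-square over genes was 2.48 to 26.1 times its degrees of freedom). Members are described by counts and medians beside those of all genes, with no test of the group.

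The members, lists and comparisons were chosen with earlier results of these data known. Values are given for the 6 highest and 3 lowest members per length, the 3 members of smallest p in each comparison, both genes of 8 paralogue pairs and 11 fixed members. Of the other lists the 2 genes of smallest p in each comparison and 6 fixed genes are given. Values of some genes that these rules call for are not reported here. Members without library overlap and opposite-strand neighbours were added once their values had been seen. Alternatives were DESeq2 1.42.0, limma-voom (limma 3.58.1), other scalings and filters, only the groups compared, a replicate block, a lowess correction for transcript length, and omitted libraries.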

Additional observations from a re-analysis of the deposited data

How the results depend on the processing

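The member medians stayed above 0 in the double line against control, the CT83 line and the HORMAD1 line and in the interaction under every alternative run, with 0.05 to 0.14, 0.05 to 0.20, 0.05 to 0.19 and 0.07 to 0.23 when 1 library at a time was left out. In the HORMAD1 and CT83 lines against control they ranged from -0.09 to 0.05 each, so their direction was not stable. The 30 differences of single genes named by rule kept their direction under all alternatives. They were chosen for the smallest p in these same data, so a reversal was unlikely from the start and no stability is read from this. Members called by edgeR numbered 0 in all 6 comparisons whichever library was left out, while 1 member, RPL5 in the double line against the HORMAD1 line, was called with no low-count filter, by DESeq2 and without the 3 libraries of steep length trend. The number of all genes called moved more, and the cause was not tested. It ranged over the libraries left out from 1 to 5 in the double line against control, 1 to 2 against the CT83 line, 0 to 39 against the HORMAD1 line, 1 to 2 in the HORMAD1 line and 0 to 1 in the CT83 line against control, and was 0 in the interaction. With no low-count filter it was 15, 4 and 103 for the double line against control, the CT83 line and the HORMAD1 line, 0 for the CT83 line against control and 2 for the interaction. DESeq2 gave 3 and 62 against the CT83 and HORMAD1 lines, 2 for the HORMAD1 line against control and 3 for the interaction, and limma-voom 2, 2 and 4 for the double line against control, CT83 and HORMAD1. A fit of only the groups compared gave 1 for the double line against the HORMAD1 line and 0 for each single line against control. Without the 3 libraries it was 13, 73 and 337 for the double line against control, CT83 and HORMAD1, 6 and 119 for the HORMAD1 and CT83 lines against control, and 22 for the interaction. At an adjusted p under 0.01 it was 1 and 0 for the double line against control and HORMAD1, and 0 for the CT83 line against control. Deviations of same-numbered samples from their line means correlated from -0.35 to 0.35, with 6 of 18 pairs over 0.1. The length trend was not taken out of these deviations, so whether replicate numbers pair the samples cannot be decided from them. With the replicate number as a block, 2, 2 and 1 genes were called in the double line against control, CT83 and HORMAD1, and with the block and the length correction together 2 and 2 in the comparisons with control and CT83. The member share with nuclear protein-coding genes as the denominator was 8.41% in the double line, 7.77% in the HORMAD1 line and 7.85% in control. With 3 libraries per line and the spread seen, 40.3% of simulated 1.5-fold changes were recovered, and smaller changes, such as the member medians, were not simulated.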

Other observations

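Apart from members, 3 genes of protein synthesis were listed at 0 in all 12 libraries: EEF1G, a subunit of the elongation factor's exchange complex, HNRNPA1, an abundant RNA-binding protein with a TOP message, and NOP2, an rRNA methyltransferase. All 3 are used by every dividing cell, and no level is drawn from these entries.

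Of the pseudogene entries named after members, 349 of 1598 had at least 1 count and 93 passed the filter on low counts. RPS2P5 ranged from 482 to 678 CPM over the 12 libraries and RPL7P1 from 108 to 154 CPM. RPL17P7, named after RPL17, which is itself listed at 0, ranged from 61.2 to 106 CPM.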
